A study of Homo sapiens with 14 samples.

Results

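The regions described here are DRIP peaks that reach into protein-coding sequence in the interior of genes. A peak of 1 of the 8 Nalm-6 peak lists was counted when it shared at least 1 base with a coding (CDS) record of a protein-coding gene and lay more than 3 kb from the start site and more than 1 kb from the 3' end of every protein-coding gene (GENCODE v44, GRCh38, chromosomes 1 to 22 and X). Of 1315747 peaks in the 8 lists, 37018 touched CDS, 4821 of those lay near a gene end, and 32197 peaks remained, which is 2.45% of all peaks. Merged over the 8 lists, the peaks formed 13757 regions of 479021 in all, over 7222 genes. Start sites and 3' ends were those of gene records, so the interior of a gene still holds ends of its shorter transcripts: 58.3% of the regions lay within these distances of the end of at least 1 annotated transcript.

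Nalm-6 is a human B cell leukemia line, and the study compared isogenic cells with the reference SF3B1 codon (K700K, here WT) and with the K700E mutation (here MT). SF3B1 is the component of the U2 snRNP that holds the branch point region of the intron during 3' splice site recognition, and K700E is its best known leukemia-associated mutation. Each of the 4 groups held 2 libraries: WT untreated, WT RNH1-treated, MT untreated and MT RNH1-treated. DNA of cells that had not been crosslinked was cut with HindIII, EcoRI, BsrGI, XbaI and SspI, part of it was digested with RNase H overnight (RNH1-treated), and DNA:RNA hybrids were pulled down with the S9.6 antibody and sequenced. The labels do not say whether the 2 libraries of a group came from separate cultures, so p-values measure the spread between libraries, which may be technical. Peak lists measure neither expression nor genotype, so neither the B cell identity nor the SF3B1 allele could be checked in them.

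An R-loop is a DNA:RNA hybrid with a displaced single DNA strand, formed mostly when a nascent transcript anneals to its template. R-loops are best known at GC-rich promoters and at transcription termination sites, where G-rich RNA stabilizes the hybrid. Within gene bodies, the binding of splicing and export factors to the nascent RNA keeps it from the DNA, and coding exons are short islands in long introns. RNase H digests the RNA of a hybrid, so a signal that it removes is taken as hybrid. An untreated peak counted as bona fide where the matching RNH1-treated list, that with its genotype and replicate number, had no peak over any of its bases.

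The sequences under the summits of 7 of the regions are given as examples. They were printed only where the summit of the highest peak stood in CDS. In the 8 libraries, 27.1% to 33.0% of the summits stood in CDS. Each is the 161 bases of GRCh38 centred on the summit of the highest peak, on the sense strand of the gene, from 5' to 3', with the coding bases in capitals and the intron in lower case. TBC1D12 and PLCH1 had bona fide peaks in all 4 untreated libraries, SATB1 and NHLRC2 were found only in MT, PRMT9 and KRIT1 only in WT, and THSD7A in MT libraries with and without RNH1 treatment and in no WT library.
TBC1D12: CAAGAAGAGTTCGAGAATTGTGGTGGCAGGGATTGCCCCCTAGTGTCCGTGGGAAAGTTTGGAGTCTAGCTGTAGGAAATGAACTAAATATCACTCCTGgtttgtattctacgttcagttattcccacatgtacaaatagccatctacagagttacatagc
PLCH1: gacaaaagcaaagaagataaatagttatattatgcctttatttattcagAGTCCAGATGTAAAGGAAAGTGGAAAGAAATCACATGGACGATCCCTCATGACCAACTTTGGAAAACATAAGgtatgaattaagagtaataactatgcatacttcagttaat
SATB1: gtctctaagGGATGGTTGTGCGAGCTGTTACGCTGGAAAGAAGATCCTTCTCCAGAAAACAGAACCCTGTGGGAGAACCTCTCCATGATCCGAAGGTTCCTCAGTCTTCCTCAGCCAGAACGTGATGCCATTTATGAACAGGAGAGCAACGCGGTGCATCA
NHLRC2: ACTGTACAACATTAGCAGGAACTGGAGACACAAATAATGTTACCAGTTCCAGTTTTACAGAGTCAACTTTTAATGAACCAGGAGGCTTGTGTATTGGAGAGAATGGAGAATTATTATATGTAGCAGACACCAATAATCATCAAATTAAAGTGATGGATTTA
PRMT9: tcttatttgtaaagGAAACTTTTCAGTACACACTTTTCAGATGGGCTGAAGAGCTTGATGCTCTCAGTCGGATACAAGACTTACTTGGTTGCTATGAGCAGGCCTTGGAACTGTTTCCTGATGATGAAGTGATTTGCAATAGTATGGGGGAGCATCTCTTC
KRIT1: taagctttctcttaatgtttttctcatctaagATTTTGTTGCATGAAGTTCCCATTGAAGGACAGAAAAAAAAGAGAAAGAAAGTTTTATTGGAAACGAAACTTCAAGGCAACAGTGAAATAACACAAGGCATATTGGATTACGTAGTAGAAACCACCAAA
THSD7A: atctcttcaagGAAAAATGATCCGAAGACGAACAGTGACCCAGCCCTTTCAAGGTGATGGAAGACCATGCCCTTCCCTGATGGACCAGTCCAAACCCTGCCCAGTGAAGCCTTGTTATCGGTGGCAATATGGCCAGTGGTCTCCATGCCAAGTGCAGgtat

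The windows lie at chr10:94500229-94500389 (plus strand), chr3:155504515-155504675 (minus strand), chr3:18352044-18352204 (minus strand), chr10:113903555-113903715 (plus strand), chr4:147680325-147680485 (minus strand), chr7:92241024-92241184 (minus strand) and chr7:11406906-11407066 (minus strand). By selection, every summit stood in CDS. In 6 of the 7 a border of that exon with an intron was inside the window, and the NHLRC2 window was coding throughout. Their GC content ran from 31.7% in PLCH1 to 51.6% in THSD7A. No sense-strand run of G was longer than 3 bases except in PRMT9, where it reached 5 bases. The KRIT1 exon carried a run of 8 A.

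Peaks over internal coding exons were more numerous in MT than in WT, but they took a like share of the peak lists. The untreated WT libraries held 3484 and 3535 of them and the untreated MT libraries 7086 and 8122, so the groups did not overlap. The means were 3509.5 ± 36.1 in WT and 7604 ± 733 in MT (SD, n = 2), a log2 ratio of 1.11 ± 0.099 (SE). In the exact permutation test of 2 against 2 libraries p was 0.333, the smallest value that this design allows, which holds for every comparison of the genotypes below. As a share of all peaks, they made up 2.82% and 2.70% in WT and 2.79% and 2.74% in MT, a difference of 0.0088 percentage points (exact permutation p = 1). All peaks together numbered 123582 and 130928 in WT and 253744 and 295970 in MT. When each list was cut to the same number of its strongest peaks, the log2 ratio was 0.032 in place of 1.11. On every chromosome analysed both MT libraries held more of these peaks than either WT library, with log2 ratios from 0.80 on chromosome 8 to 1.46 on chromosome 22. All other peaks did alike, with log2 ratios from 0.96 on chromosome 4 to 1.41 on chromosome X. On chromosomes 8 and 22 their ratios were 1.15 and 1.16.

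RNH1-treated libraries held fewer peaks over internal coding exons, and a smaller share. The WT RNH1-treated libraries had 693 and 1669 and the MT RNH1-treated libraries 3835 and 3773, a log2 ratio of 1.82 ± 0.634 (SE) between the genotypes that was −0.067 with lists of equal length and 1.19 without the smaller WT library. The share of all peaks was 1.99% and 2.16% for WT with RNH1 and 1.91% and 1.90% for MT with RNH1, below all 4 untreated libraries. The 2 WT RNH1-treated libraries stood apart from each other in number, with 34857 and 77391 peaks in all. Depth differed as well: the median background under these peaks, recovered from fold enrichment and p-value, was 3.66 and 3.80 reads for the untreated WT libraries and 4.08 and 5.05 for the untreated MT libraries. With RNH1 it was 2.23 and 2.89 reads for WT and 3.24 and 2.91 for MT. Untreated MT was highest and RNH1-treated WT lowest in both background and number, while RNH1-treated MT held more peaks than untreated WT at a lower background. The part of depth in these numbers was not tested.

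Bona fide peaks over internal coding exons numbered 2959 and 2491 in WT and 4181 and 4818 in MT, a log2 ratio of 0.73 ± 0.161 (SE) that was 0.042 with lists of equal length (exact permutation p = 0.667). This left 84.9% and 70.5% of them in WT and 59.0% and 59.3% in MT, a difference of −18.5 percentage points. The RNH1-treated lists were longer in MT, and with lists of equal length the difference was 0.56. Within each library, peaks over internal coding exons were kept more often than all other peaks, with 81.9% and 65.7% of the others kept in WT against 48.8% and 51.0% in MT. The difference was 6.62 ± 3.27 percentage points (SD, n = 4 libraries) and had this sign in 4 of 4 libraries (exact test of sign changes, p = 0.125, the smallest that 4 libraries allow).

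**Figure D1:**
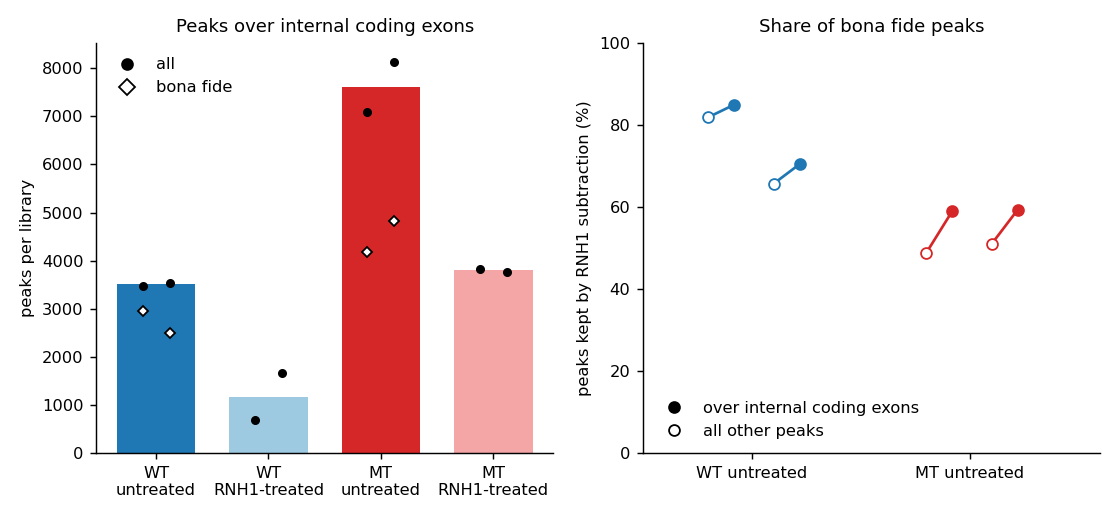
Left, number of peaks over internal coding exons in each of the 4 groups, with bars at the mean of 2 libraries, filled circles for each library and open diamonds for its bona fide peaks. Right, percent of peaks kept by RNH1 subtraction in each untreated library, for peaks over internal coding exons (filled) and all other peaks (open): the filled circle is the higher of the pair in 4 of 4 libraries.

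The peaks were narrow and each sat on a single exon as a rule. Their median length was 436 to 524 bases in the 8 libraries, against 381 to 447 bases for all other peaks. Of them, 92.3% to 94.1% touched only 1 coding exon, and up to 7 exons lay under a peak. CDS made up 22.5% to 26.8% of their bases, and 27.1% to 33.0% of the summits stood in CDS. At least 95.0% held no site of the 5 restriction enzymes. Summit fold enrichment, the ratio of pileup to local background that the peak caller reports, had a median of 4.35 and 4.36 in untreated WT and 4.43 and 4.30 in untreated MT (difference 0.0093 ± 0.067, SE, exact permutation p = 1). In these lists of unequal length the difference was smaller than its standard error. With lists of equal length MT was higher by 1.41, and it was higher by 0.204 among peaks with a fold enrichment of at least 4 and by 0.191 among peaks with the summit in CDS (exact permutation p = 0.333 each). The cut to equal length drops the peaks with the weakest p-values, mostly from the longer MT lists. It therefore tends to raise the MT median by construction, and the 1.41 is no measure of genotype alone.

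Base composition separated the genotypes in the untreated libraries. The mean GC content of peaks over internal coding exons was 39.6% and 40.0% in untreated WT and 43.5% and 42.9% in untreated MT, a difference of 3.39 ± 0.359 percentage points (SE, exact permutation p = 0.333), with no overlap. All other peaks moved alongside, from 37.5% and 37.95% in WT to 41.9% and 41.3% in MT. With RNH1 the genotypes overlapped for peaks over internal coding exons, which had 41.9% and 42.7% in WT and 42.9% and 42.5% in MT. All other peaks did not overlap there, at 38.6% and 39.6% in WT and 41.0% and 40.8% in MT. G-rich RNA favours hybrids, which is scored as the sense GC skew, (G − C)/(G + C) on the coding strand. Within 150 bases of the summits of untreated libraries the skew was 0.035 and 0.038 for WT, higher than the 0.026 and 0.026 for MT, against 0.018 for the middles of all 173934 eligible exon blocks. A run of 4 G on the sense strand was found in 38.1% and 38.9% of these windows in WT and 48.1% and 46.6% in MT, below the 54.8% of all exon middles, whose GC content was 46.8%. Runs of 4 C were about as frequent, at 37.1% and 38.5% in WT, 48.2% and 46.3% in MT and 56.0% for exon middles. Most summits stood outside CDS, unlike the exon middles. In the RNH1-treated libraries the skew was 0.034 and 0.025 for WT and 0.026 and 0.027 for MT.

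Replicates shared most of these peaks and genotypes shared fewer. Of the peaks over internal coding exons in a WT library, 69.1% and 69.98% overlapped a peak of the other WT library, and 73.4% and 81.6% did so between the MT libraries. Between the genotypes, 47.0% to 52.4% of those in WT overlapped an MT peak, and 24.0% to 24.98% of those in MT overlapped a WT peak. The shares for all other peaks were 66.7% to 81.1% between replicates, 47.4% to 52.4% for WT peaks in MT and 21.7% to 24.3% for MT peaks in WT.

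Regions found in only 1 genotype were counted over the 4 untreated lists, where 12272 of 414528 merged regions held a peak over an internal coding exon. A region was counted as only in MT when both MT libraries had a bona fide peak there and neither untreated WT library had a peak. Of the 12272 regions, 2058 were only in MT, which is 16.8%, beside 12.5% of all regions. Only in WT were 707 regions, which is 5.76%, beside 5.49% of all regions. The share only in WT thus lay near that of all regions. The larger number in MT went with the longer MT lists: with lists of equal length there were 1223 regions only in MT and 1198 only in WT. Since 57.9% of the regions only in MT and 55.1% of those only in WT lay near the end of some transcript, the counts fell to 881 and 323 when every transcript end was kept clear.

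Regions only in MT were richer in GC than regions only in WT, which is given as a description. Merged over the 8 lists, they held 2061 and 709 regions. Regions only in MT had a median GC content of 43.5% (quartiles 40.0% and 47.5%) and regions only in WT 35.3% (quartiles 32.4% and 40.4%), beside 42.5% and 34.3% for regions with the same pattern outside internal coding exons. The exon with most bases under the peak had a median length of 141 bases in the MT set and 128 bases in the WT set, and exceeded 200 bases in 25.4% and 16.5% of them.

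The 8 regions only in MT with the highest mean fold enrichment had no peak in any of the other 6 libraries. GRIA4, which encodes a subunit of AMPA glutamate receptors, led them with 12.2 and 14.2 in the 2 MT libraries, at exon 10 of 17 (chr11:105910307-105910709). SATB1, a chromatin organizer of lymphoid cells, had 13.1 and 12.1 at exon 10 of 11 (chr3:18351945-18352384). DIDO1, a chromatin reader with a PHD finger, had 11.5 and 12.6 at exon 13 of 16 (chr20:62892261-62893016). The other 5 lay in ENPP6, a choline phosphodiesterase, NDFIP2, an adaptor of NEDD4 ubiquitin ligases, ARHGEF12, a guanine nucleotide exchange factor, NHLRC2 and FAM114A2, and ran from 10.5 to 11.5. In ENPP6 the region covered exon 1 of the 8 exons of the canonical transcript, so it is interior to the gene record but holds the start of that transcript. The NDFIP2 region touched CDS of a transcript other than the canonical one.

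The 8 regions highest only in WT were of like height. PRMT9, the arginine methyltransferase that modifies the U2 snRNP protein SF3B2, had 16.6 and 14.3 in the WT libraries at exon 2 of 12 (chr4:147680164-147680671). TUT7, a terminal uridylyltransferase of RNA, had 10.3 and 11.0 at exon 6 of 27 (chr9:86342760-86343382). COL9A1, a chain of cartilage collagen, had 8.59 and 12.2 at exon 19 of 38 (chr6:70263223-70263528). KRIT1, a scaffold of endothelial junctions, ADGRL3 and ADGRV1, adhesion G protein-coupled receptors, SEL1L, a part of the ubiquitin ligase complex of endoplasmic reticulum-associated degradation, and SMCHD1, a chromatin protein of X inactivation, ran from 9.67 to 10.6. The KRIT1 exon also lies in 2 overlapping gene records, and at ADGRV1 the CDS belongs to a transcript other than the canonical one. SMCHD1 also had a peak of 2.81 in 1 MT RNH1-treated library, and the other 7 had none outside untreated WT. The highest peak of each WT region had a GC content of 27.2% to 41.1%, and that of each MT region 34.2% to 51.5%.

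In 366 regions all 4 untreated libraries had bona fide peaks, which is 2.66%, beside 1.54% of all regions. The highest was TRIB2, a pseudokinase of the Tribbles family, with 8.33 and 10.3 in WT and 11.6 and 11.0 in MT at exon 2 of 3 (chr2:12722926-12723696). CSMD3, a membrane protein with CUB and sushi domains, had 9.30 and 5.89 in WT and 9.08 and 13.1 in MT at exon 61 of 71. TBC1D12, a protein of the Rab GTPase-activating TBC family, had 9.23 and 7.98 in WT and 7.52 and 9.52 in MT at exon 6 of 13 (chr10:94499783-94500362). At these 3 genes the libraries of the genotypes overlapped, apart from TRIB2, where MT was the higher by a small margin. PLCH1, a phospholipase C of the eta class, had 8.02 and 8.73 in WT and 6.87 and 8.22 in MT. COL12A1, a collagen that associates with fibrils, had 4.26 and 5.57 in WT and 9.89 and 10.2 in MT. OSCP1 had 9.95 and 7.87 in WT and 7.77 and 7.29 in MT, over CDS of a transcript other than the canonical one.

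Other regions kept their peaks after RNH1 treatment. In 311 regions all 8 libraries had a peak, which is 2.26%, beside 2.20% of the regions outside internal coding exons. The highest was at exon 5 of 19 of BTK, the kinase that signals downstream of the B cell receptor (chrX:101369712-101370297). Its WT libraries had 7.01 and 6.79 untreated and 21.1 and 20.4 with RNH1, and its MT libraries 11.1 and 12.9 untreated and 28.2 and 27.4 with RNH1. In each genotype the fold enrichment of BTK was thus higher after RNH1 treatment, without overlap. SLCO1B3, a hepatocyte uptake transporter, had 11.9 and 12.2 in WT, which became 22.3 and 22.2 with RNH1, and 10.3 and 12.1 in MT, which became 21.4 and 21.9 with RNH1. MSI2, an RNA-binding protein, TTN, the giant spring protein of the sarcomere, PCDH17, a protocadherin, and GLIS3, a zinc finger transcription factor, completed the 6 highest, with 6.86 to 23.5. The MSI2 region touched CDS of a transcript other than the canonical one. That of PCDH17 lay in exon 4 of 4, the last exon of the canonical transcript.

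Over the 311 regions, the median log2 ratio of RNH1-treated over untreated fold enrichment was 0.013 and 0.13 in the 2 WT pairs and 0.31 and 0.14 in the 2 MT pairs, and 50.2% to 71.4% of the regions were higher after treatment. Among the 10228 regions of all 8 libraries outside internal coding exons the medians were 0.067, 0.19, 0.38 and 0.23. Fold enrichment is relative to the local background of its own library, which was lower in the RNH1-treated libraries. A further 1625 regions had a peak in both RNH1-treated MT libraries and in no WT library, which is 11.8%, a smaller share than the 17.3% of all regions. The highest were in DSG1, a desmosomal cadherin, with 15.8 and 16.1 in untreated MT and 21.0 and 21.3 in RNH1-treated MT, and in PDE6C, the cone phosphodiesterase, with 6.74 and 7.89 and then 18.7 and 19.3. FEZ2, TMEM260, DNM3, a dynamin, and THSD7A, a thrombospondin-repeat membrane protein, followed with 15.8 to 19.2 in the RNH1-treated MT libraries.

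**Figure D2:**
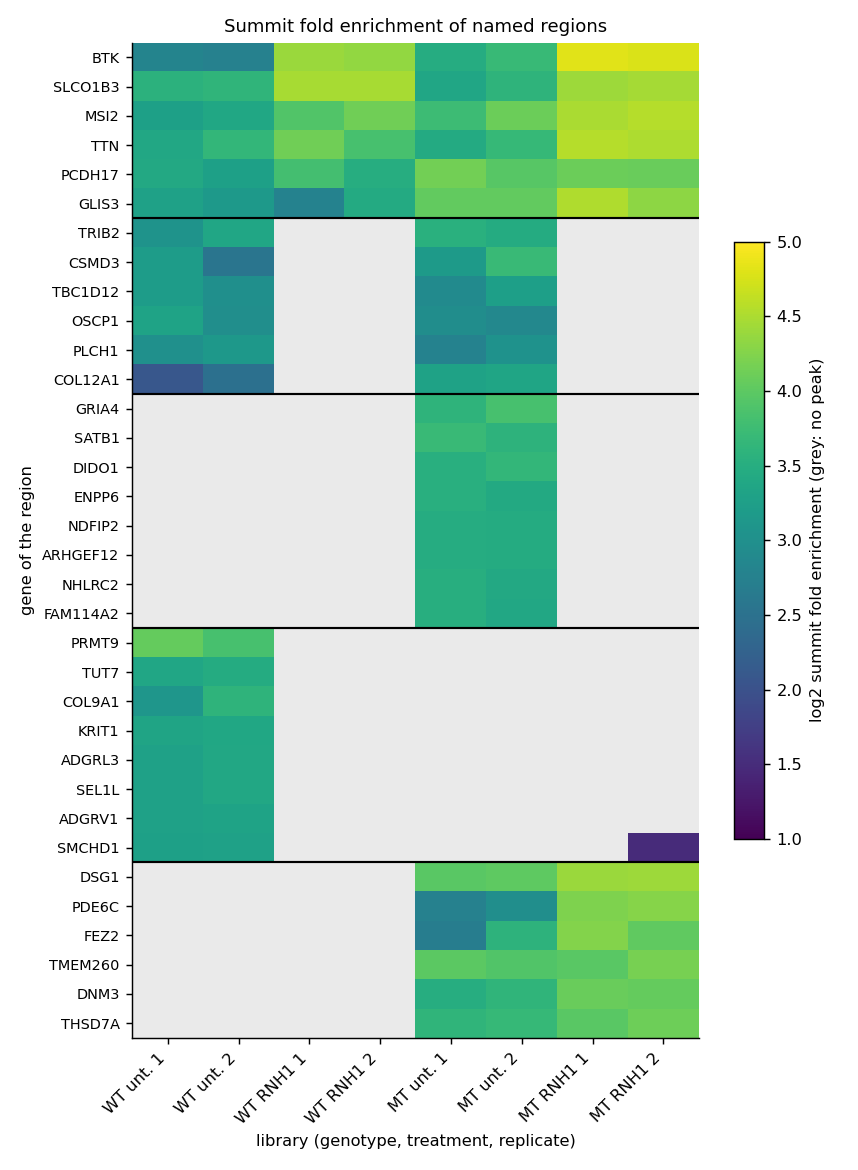
Summit fold enrichment (log2, colour scale) of the named regions, one row for each gene, in the 8 libraries, with grey for no peak. From top to bottom, the first blocks are regions with a peak in all 8 libraries and regions bona fide in all 4 untreated libraries. Below them stand regions only in MT, only in WT, and in both RNH1-treated MT libraries but no WT library. In the first block BTK reached 28.2 with RNH1, while PCDH17 was highest in an untreated MT library, at 17.7.

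Counting peaks does not say whether exons are favoured over the intron beside them, so coverage was compared. Eligible internal CDS amounted to 28.0 Mb, and the intron within 1 kb of it to 198 Mb. Peaks covered 1.68% and 1.77% of this CDS in untreated WT, against 1.89% and 2.01% of the intron. In untreated MT they covered 4.01% and 4.55% of the CDS, against 3.66% and 4.30% of the intron. Exons were thus covered less than their surroundings in both WT libraries and more in both MT libraries: the log2 ratio was −0.17 and −0.18 for the WT libraries and 0.13 and 0.083 for the MT libraries. The MT minus WT difference was 0.28 ± 0.025 (SE), without overlap (exact permutation p = 0.333). Over the 4 untreated libraries together the ratio was −0.035 ± 0.165 (SD, n = 4, exact test of sign changes, p = 0.75).

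The sign of the mean over the 4 untreated libraries depended on the surroundings chosen. With a flank of 250 bases in place of 1 kb this mean was 0.082. It pools the genotypes, which still differed by 0.27 (MT minus WT). On average exons thus remained covered less than this flank in WT and more in MT. When each exon counted once, the middles of the exons in untreated WT lay under a peak in 1.798% and 1.85% of cases, against 1.67% and 1.75% at 500 bases upstream and 1.61% and 1.74% at 500 bases downstream, where other exons may lie. In untreated MT the middles reached 3.74% and 4.31%, against 3.23% and 3.82% upstream and 3.16% and 3.63% downstream. As a log2 ratio of the middle over the mean of both sides this came to 0.13 and 0.084 for WT and to 0.23 and 0.21 for MT, so that MT stood above WT here as well. Farther out, over 1500 to 2000 bases on both sides, coverage was higher again, and the middles had 0.993 and 0.935 times that level in untreated WT and 1.01 and 0.994 times that level in untreated MT. The exon middle was thus above its nearer surroundings in all 4 untreated libraries, but above the farther ones in only 1 of them.

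For the 1 kb flank, the difference between the genotypes was 0.25 with lists of equal length. With bona fide peaks alone it was 0.42, from −0.17 and −0.15 for WT to 0.30 and 0.22 for MT. Because CDS is richer in GC than intron and the genotypes differed in the GC content of their peaks, the intron was also weighted to the local GC content of the CDS. The ratio was then above 0 in all 4 libraries, at 0.16 and 0.13 in WT and 0.40 and 0.37 in MT, and the difference was 0.24. After RNH1 treatment the ratio was −0.077 and −0.20 for WT, and −0.17 and −0.18 for MT, so that the genotypes overlapped. At matched GC content the RNH1-treated libraries stood at 0.15 and 0.0011 (WT) and 0.11 and 0.11 (MT). The change with treatment was 0.092 and −0.014 in the WT pairs and −0.30 and −0.27 in the MT pairs (difference −0.32, exact permutation p = 0.333).

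**Figure D3:**
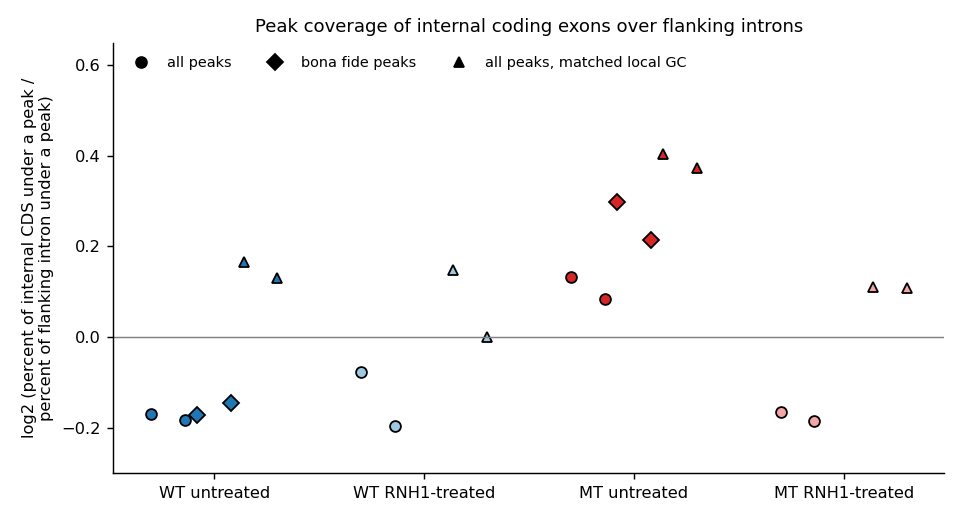
Log2 ratio of the percent of internal CDS under a peak to the percent of flanking intron (within 1 kb) under a peak, 1 point for each library, in the 4 groups. Circles are all peaks, diamonds bona fide peaks and triangles all peaks with the intron weighted to the local GC content of the CDS; the untreated MT libraries stand above the untreated WT libraries for each symbol.

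Coverage depended on local GC content, taken within 250 bases to each side, and did so differently in the genotypes. At 30 to 35% GC, peaks covered 3.10% and 3.15% of the CDS in untreated WT, more than the 2.15% and 2.92% in untreated MT. At 40 to 45% GC the order was the opposite, with 2.23% and 2.44% in WT and 7.89% and 9.16% in MT. The intron beside the exons behaved alike, at 1.995% and 2.19% in WT and 6.25% and 7.20% in MT for 40 to 45% GC. At 50 to 55% GC the exon was covered more than intron of the same composition in all 4 libraries: 1.02% and 1.14% against 0.673% and 0.817% in WT, and 3.86% and 4.03% against 2.15% and 2.19% in MT.

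**Figure D4:**
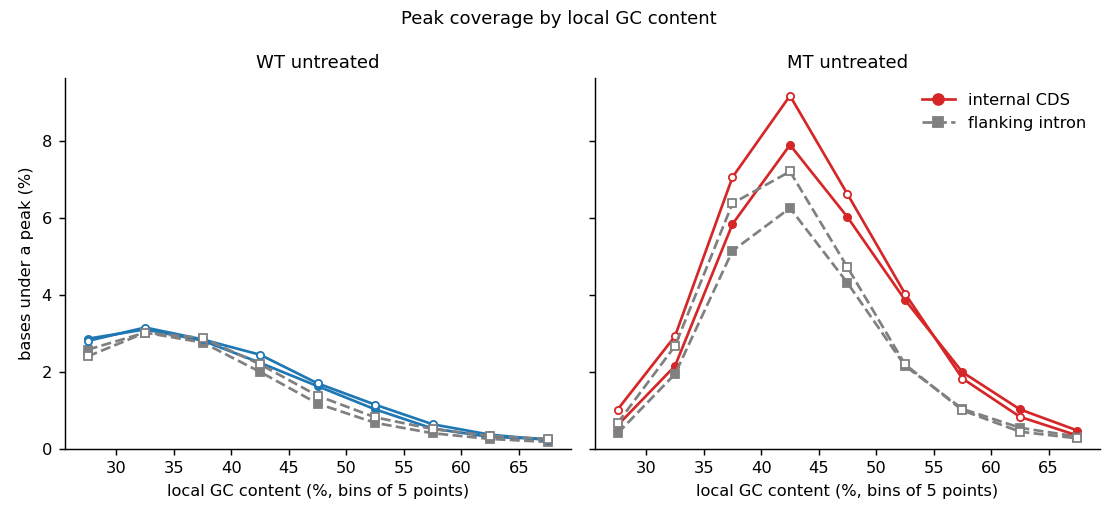
Percent of bases under a peak by local GC content in bins of 5 percentage points, for internal CDS (coloured, solid) and flanking intron (grey, dashed) in untreated WT (left) and MT (right), with filled symbols for replicate 1 and open symbols for replicate 2. WT coverage was highest at 30 to 35% GC and MT coverage at 40 to 45%, where MT exons reached 7.89% and 9.16%.

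Up to a length of 1000 bases, coverage was higher in longer exons in MT and lower in the longest of these classes in WT. In untreated MT, peaks covered 3.28% and 3.81% of the bases of exons of up to 100 bases, 4.51% and 5.08% of those of 201 to 500 bases and 5.01% and 5.14% of those of 501 to 1000 bases. In untreated WT the same classes had 1.87% and 1.87%, 1.71% and 1.81%, and 1.23% and 1.35%. Relative to all flanking intron, exons of 501 to 1000 bases stood at a log2 ratio of 0.45 and 0.26 in MT and −0.62 and −0.58 in WT. GC content rose over the same classes, from 48.0% to 54.0%, and its part in the length pattern was not tested. Beyond that length both genotypes turned, to 4.38% and 4.91% in MT and 1.44% and 1.64% in WT. Exons over 1000 bases, of which there were 2114 with a GC content of 50.5%, differed in the RNH1-treated WT libraries. They were covered at a log2 ratio of 0.64 and 0.46 over intron there, while every shorter class was below 0. In RNH1-treated MT they stood at 0.17 and 0.095, and exons of 501 to 1000 bases at 0.011 and 0.059.

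**Figure D5:**
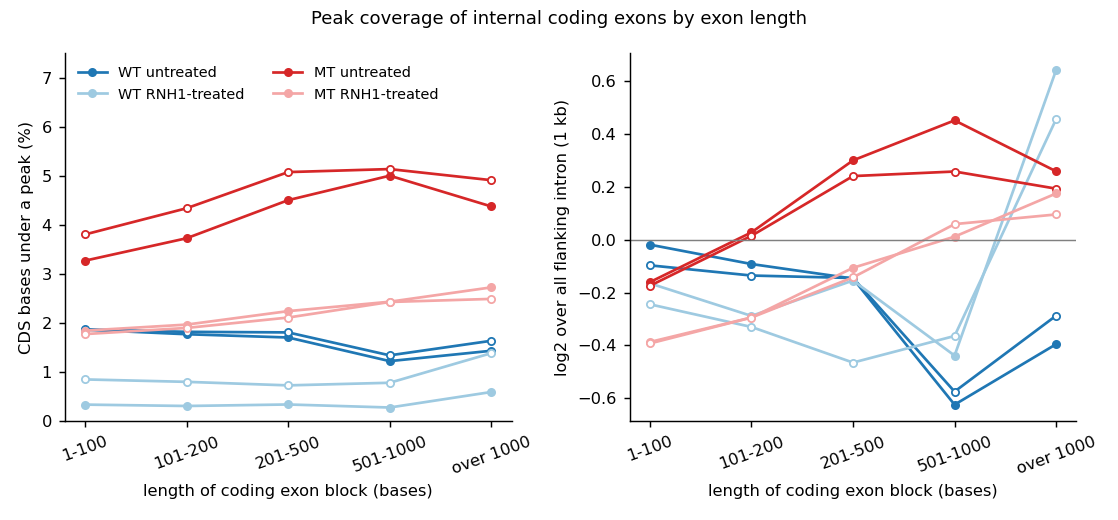
Percent of CDS bases under a peak (left) and its log2 ratio over all flanking intron (right) by length of the coding exon block, 1 line for each of the 8 libraries, with filled symbols for replicate 1 and open symbols for replicate 2. The untreated MT lines rise from the shortest class to 501 to 1000 bases, the untreated WT lines fall over the same classes, both turn beyond them, and the RNH1-treated WT lines turn up over 1000 bases.

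The 5 regions with most coding bases under a peak of all 4 untreated libraries each lay in a single exon, apart from MDC1, where the region crossed exons 10 to 14 of 15. WNK1, a kinase of ion transport, had 871 such bases in exon 19 of 28 (chr12:884420-885644), with a fold enrichment of 4.77 to 7.93 in the 8 libraries. MDC1, a mediator of the DNA damage checkpoint, had 787 bases, with 3.01 to 4.98 and no peak in either RNH1-treated MT library. ZMAT1, a zinc finger protein, had 723 bases in exon 6 of 6, the last exon of its canonical transcript. BBX, an HMG-box protein, had 676 bases, and both genes had peaks in all 8 libraries. GPRC6A, an amino acid-sensing receptor, had 672 bases and lacked a peak in 1 RNH1-treated MT library. Only MDC1 was bona fide in both libraries of a genotype, MT.

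The genes with most separate regions had long coding sequences of many exons. TTN, which encodes titin, held 39 regions over 364 eligible coding exons, of which 30 and 27 lay under a peak in the untreated WT libraries and 37 and 58 in the untreated MT libraries, against 5 and 15 (WT) and 24 and 24 (MT) with RNH1. SYNE1 and SYNE2, the nesprins that link nucleus and cytoskeleton, held 24 and 21 regions. DST and MACF1, linkers of actin and microtubules, held 20 and 19, NEB, which encodes nebulin of muscle, 18, and LRP2, the endocytic receptor megalin, and RYR2, the cardiac calcium release channel, 16 each. Per kb of eligible CDS, TTN had 0.34 regions and LRP2 1.15, with the other 6 between. Peaks covered 7.82% and 10.7% of TTN's eligible CDS in untreated MT and 4.03% and 4.29% in untreated WT. In all 8 genes both untreated MT libraries had more exons under a peak than either untreated WT library. Coverage of all genes differed the same way, at 4.00% and 4.54% of eligible CDS in untreated MT and 1.68% and 1.77% in untreated WT. The 8 genes were also picked by regions merged over all lists, to which the MT libraries gave most peaks.

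Of 16737 genes with eligible coding sequence, 43.1% held at least 1 region, 11.997% had a peak in both untreated WT libraries and 24.1% in both untreated MT libraries, and the median eligible coding length was 1213 bases. C2H2 zinc finger genes, whose coding sequence often sits in 1 long exon near the gene's end, held regions in 223 of 581 genes, with 7.57% in both WT and 21.5% in both MT libraries. Collagens, with many short exons, held them in 35 of 44, with 27.3% and 61.4%. Peaks covered 0.986% and 0.656% of the collagen CDS in untreated WT and 3.66% and 4.01% in untreated MT, beside 1.68% and 1.77%, and 4.00% and 4.54%, over all genes. Dynein heavy chains held regions in 13 of 15 genes and mucins in 13 of 16. The median eligible coding length was 12683 bases for dynein heavy chains, 8222 for mucins and 4540.5 for collagens, above that of all genes. Dynein coding sequence was covered at 1.70% and 1.91% in untreated WT and 3.60% and 4.92% in untreated MT, near the values of all genes. Mucin coding sequence was covered more after RNH1 treatment in WT, at 2.96% and 4.96%, than in untreated WT, at 1.86% and 1.52%, while in MT the treated libraries, at 4.07% and 2.86%, overlapped the untreated ones, at 3.14% and 4.54%. Of 37 clustered protocadherin genes, with a median eligible coding length of only 372 bases, 1 held a region. The part of coding length in these family counts was not tested.

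Of 43 genes that resolve or prevent R-loops (helicases, RNase H subunits, mRNA export factors and DNA repair proteins), 39 had eligible CDS and 31 held at least 1 region, and their median coding length of 2462 bases exceeded that of all genes. Peaks covered 2.66% and 3.09% of their eligible CDS in untreated WT and 2.83% and 3.27% in untreated MT, so the genotypes overlapped here, whereas over all genes MT stood at 4.00% and 4.54% and WT at 1.68% and 1.77%. In both WT libraries 13 of the 39 genes had such a peak and in both MT libraries 16. A region bona fide in both libraries of a genotype was found in 16 of the 39 genes, which is 41.0%, beside 20% of all genes with eligible CDS, and the part of their coding length in this was not tested. Of the 12 with the highest mean in that genotype, 11 are named. Each is described by 1 such region, that with the highest mean, while the list held 82 regions in all. A missing peak below refers to that region and not to the whole gene. ATRX, a chromatin remodeler, had 6.66 and 5.09 in WT over 483 coding bases of its exon 9 and no peak in the other 6 libraries.

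WRN and DDX1, helicases, and MTREX, the helicase of the nuclear exosome, had bona fide peaks in both WT libraries, at 4.10 to 4.71. At these regions MT had no peak, and other regions of the same genes are not described. THOC5, a subunit of the THO export complex, had 8.19 and 7.48 in MT and no peak at this region in the other libraries. FANCA, of the Fanconi anemia core complex, had 5.32 and 3.36 and DHX9, a helicase that binds R-loops, 4.65 and 2.99 in MT, with 3.47 in 1 RNH1-treated WT library for DHX9. BRCA1, the repair protein, had 5.76 and 6.79 in WT and 10.2 and 8.22 in MT at exon 15 of 23 (chr17:43070823-43071366), but 3.46 and 4.22 after RNH1 treatment of MT, so it was bona fide in WT alone. FANCM, FANCD2 and DDX39B were bona fide in both WT libraries and had a peak in at least 1 untreated MT library.

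Of 28 genes of the B lineage, 23 had eligible CDS and 10 held a region, which at 43.5% is near the share of all genes, and peaks covered 1.44% and 1.60% of their CDS in untreated WT and 3.43% and 3.12% in untreated MT. A region bona fide in both libraries of a genotype was found in 4 of the 23, which is 17.4%, beside 20% of all genes. The values that follow are of 1 such region per gene, that with the highest mean, while the list held 16 regions in all. PAX5, the B cell identity factor, had 7.01 and 7.33 in MT at exon 2 of 10 and no peak at this region in the other libraries. EBF1, its partner in early B cells, had 2.65 and 2.98 in MT at exon 14 of 16 and likewise no peak there in the other libraries. CD38, an ectoenzyme of lymphocytes, had a bona fide peak in all 4 untreated libraries, and the highest peaks of the merged region were 3.30 to 6.01 in these libraries and 4.36 and 4.71 after RNH1 treatment of MT. MME, which encodes a surface antigen of precursor B cells, had 3.57 and 3.24 in WT and 3.57 in 1 MT library.

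For its RNA binding assays of SERBP1, the study picked 6 genes partly for their R-loops, so they are not independent of these libraries. Of them, 5 had eligible CDS and all 5 held a region, and 8.39% and 4.25% of their CDS was covered in untreated WT and 12.5% and 12.3% in untreated MT. The values that follow are of 1 region per gene, bona fide in both libraries of a genotype and with the highest mean, of 10 regions in the list. MTR, methionine synthase, had 6.67 and 6.98 in WT and 4.28 and 3.39 in MT and no peak after RNH1 treatment. ZFR, a zinc finger RNA-binding protein, had 5.83 and 5.30 in WT and 3.66 and 2.96 in MT and likewise none. At the described region of both genes each WT library was above each MT library, unlike the coverage of the whole list. PKM, pyruvate kinase, had 4.21 and 3.38 in MT alone. SF3B2, a U2 snRNP protein, had 3.42 and 3.76 in WT and 5.75 and 7.07 in MT, and kept its peak in both RNH1-treated MT libraries, at 6.74 and 5.32.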

How the data were processed

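DRIP-seq of Nalm-6 cells was analysed in 4 groups of 2 libraries, as the labels give genotype and treatment. RNA-Seq of HEK293T cells belongs to the same series and was not used here. According to Methods, the authors used BWA-MEM for alignment to GRCh38 and Picard against duplicates, dropped mitochondrial reads and called narrow peaks with MACS2, and the peak lists were deposited for each library by itself. Per the deposited lists, each peak carries the authors' fold enrichment at its summit (a ratio over local background), −log10 p-value and q-value, and a whole-number score. Methods give a q of 0.05, but the smallest −log10 q in the lists was 2, so the setting used remains unclear. They list no reads, so read depth is unknown apart from the background pileup, which was solved from fold enrichment and the Poisson −log10 p-value, and it limits which exons could be called.

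Peaks were compared with CDS records of GENCODE v44 by Python 3.11.15, numpy 2.4.6 and pandas 2.3.3. Interval steps and tests were checked on simulated peaks. Libraries were the replicates, in two-sided exact permutation tests of 2 against 2 libraries (smallest p 0.333) or of sign changes over 4 libraries (smallest p 0.125). The study's test on reads could not be run on peak lists. Same-numbered libraries of the genotypes share only a number. Local GC content was matched in bins of 5 percentage points. The rule for the members, the 3 gene lists and the families were chosen with earlier results of these data known. Named regions were those with the highest mean fold enrichment over the libraries of each pattern (6 in all 8 libraries, 6 bona fide in all 4 untreated libraries, 8 only in MT, 8 only in WT, 6 in RNH1-treated MT without WT), the 8 genes with most regions, the 5 regions with most common coding bases, and up to 12 genes per list. A gene and a sequence chosen by these rules are not reported here. The sequences are reference sequence, and windows on chromosome 8, with untranslated bases or with the summit outside CDS were not printed. Alternatives were a fold enrichment of at least 4, a −log10 q of at least 4, lists of equal length by p-value, at least 50 CDS bases, the summit in CDS, the ends of every transcript, canonical CDS, another RNH1-treated list, a flank of 250 bases, weighting to one GC distribution, the replicate block and leaving out each library. Matched local GC content and bona fide coverage were added after seeing the data.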

Additional observations from a re-analysis of the deposited data

How the results depend on the processing

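Of 155 alternative values, 131 kept their direction and size class, 12 counts moved by over 1.5 times and 12 values changed sign. The 131 include the values of the replicate block, which equal the main values by construction and could not change. Regions only in MT numbered 1155 with a fold enrichment of at least 4, 1223 with lists of equal length, 923 with the summit in CDS, 881 clear of every transcript end, and 4037 without RNH1 subtraction. Regions only in WT numbered 1198, 271 and 323 with lists of equal length, the summit in CDS and all transcript ends. With lists of equal length the log2 ratio of RNH1-treated peaks was −0.067 and the difference in kept share 0.56 percentage points, and at a −log10 q of at least 4 the difference in median fold enrichment was −0.054. Weighted to one GC distribution, the difference in share of all peaks was −0.295 percentage points. The coverage ratio over the 4 untreated libraries was 0.082 with a flank of 250 bases, 0.268 at matched local GC content (exact test of sign changes, p = 0.125) and 0.049 with bona fide peaks only. The cause of these changes was not tested, apart from the shorter lists and narrower definitions themselves.

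Leaving out each library in turn gave log2 ratios of 1.01 to 1.21 for untreated, 1.19 to 2.46 for RNH1-treated and 0.60 to 0.85 for bona fide peaks. The kept share differed by −25.8 to −11.3 percentage points between genotypes and by 5.41 to 7.80 between these and other peaks. GC content differed by 3.09 to 3.69 points, the share of all peaks by −0.051 to 0.068 and median fold enrichment by −0.057 to 0.076. The coverage ratio ran from −0.090 to 0.015, and its difference between genotypes from 0.26 to 0.31. Regions only in MT numbered 2204 to 3704, with 3704 without MT replicate 1 and 3238 without MT replicate 2. Regions only in WT numbered 783 to 1347, with 1222 without WT replicate 1 and 1347 without WT replicate 2. A single library then defines the genotype. With the replicate block, the mean differences were by construction the same (1.11 on the log2 scale for untreated peaks, 0.28 for the coverage ratio) and the smallest p of 2 pairs is 0.5. The numbers were not shown to pair the libraries, and the block changed no call.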
